A study of Mus musculus with 8 samples.

Results

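The matrix metalloproteinases (MMPs) and their tissue inhibitors (TIMPs) were followed through 9 genes, Mmp2, Mmp3, Mmp9, Mmp10, Mmp13, Mmp14, Timp1, Timp2 and Timp3. These were the rows of the count table with those gene names, 9 of 55421 genes and 9 of the 27 MMP and TIMP genes in it, chosen with earlier results of these data known. All 9 passed the filter on low counts, which 20588 genes passed in all. The RNA came from primary cultures of mouse spermatogonia (SSC culture) of strain background C57BL/6XDBA/2, started from testes of pups and depleted of adherent somatic cells. The culture medium held N2, and the sample labels give bFGF and GDNF at 10 ng/ml each for all 8 libraries. The paper's recipe gives a higher GDNF level. All cultures stood on purchased embryonic fibroblasts (MEFs) of outbred CF1 mice that had been stopped from dividing by irradiation, so each library held RNA of germ cells and of feeder cells. The 4 groups, with 2 libraries each, were Stra8KO in vehicle (Veh), Stra8KO in NRRA, Spo11KO in Veh and Spo11KO in NRRA, where NRRA is a nutrient-restricted medium with retinoic acid. By the paper's recipe, NRRA medium is mostly a balanced salt solution with a small part of complete medium. Growth factors, serum and N2 were thus diluted in NRRA, although the labels give the same values for all groups. Stra8 is a gene that retinoic acid induces as germ cells enter meiosis, and the SPO11 enzyme cuts the DNA at which meiotic recombination begins. Wild-type cultures were not analysed here. No group had retinoic acid alone or nutrient restriction alone, so their effects cannot be told apart in these libraries.

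MMPs are zinc-dependent proteases that are made as inactive precursors and cut collagens, proteoglycans and other matrix proteins outside the cell. Stromelysins such as MMP3 and MMP10 cut a broad range of matrix proteins and activate other MMP precursors, collagenases such as MMP13 open fibrillar collagen, gelatinases (MMP2 and MMP9) cut denatured and basement membrane collagen, and membrane-type MMPs such as MMP14 work at the cell surface. TIMPs block the active site of MMPs. Fibroblasts are a main source of both. In fibroblast cultures, activated retinoic acid receptors are known to repress collagenase and stromelysin genes that are driven by the transcription factor AP-1 (dimers of FOS and JUN proteins).

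Mmp3, Mmp10 and Mmp13 lie in a cluster of 10 MMP genes that spans 427.1 kb of chromosome 9 (GRCm38, positions 7272514 to 7699585) and holds no other protein-coding gene. Their promoters are shown with that of Mmp1a, the neighbour between Mmp3 and Mmp10, because these genes shared promoter letters while their response to NRRA ranged from small to more than 10-fold. Each line gives the 110 bases before the RefSeq start, 5′ to 3′ (GRCm38.p6, plus strand). Capitals mark AP-1 letters (TGANTCA, searched on both strands) and TATAAA.
Mmp3 (chr9:7445712-7445821): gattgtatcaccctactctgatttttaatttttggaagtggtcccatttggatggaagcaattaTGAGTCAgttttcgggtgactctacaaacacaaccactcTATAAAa
Mmp1a (chr9:7464031-7464140): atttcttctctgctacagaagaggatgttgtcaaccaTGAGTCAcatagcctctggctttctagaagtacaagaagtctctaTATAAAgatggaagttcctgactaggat
Mmp10 (chr9:7502232-7502341): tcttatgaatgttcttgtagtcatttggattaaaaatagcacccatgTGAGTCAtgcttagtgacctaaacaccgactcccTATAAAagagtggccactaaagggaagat
Mmp13 (chr9:7272404-7272513): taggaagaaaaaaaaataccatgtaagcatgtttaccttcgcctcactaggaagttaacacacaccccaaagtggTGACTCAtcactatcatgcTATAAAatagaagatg

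RefSeq promoter windows of 300 bases were at hand for 7 of the 9 genes, all but Mmp2 and Mmp9. The AP-1 letters were in 3 of these 7 (Mmp3, Mmp10 and Mmp13) and not in the windows of Mmp14, Timp1, Timp2 and Timp3. TATAAA was in the same 3. Of all 32817 promoter windows, 7.81% held the AP-1 letters, 13.6% held TATAAA and 1.54% held both. Across the chromosome 9 cluster, 8 of 10 genes had the AP-1 letters and 9 of 10 had TATAAA. A gene was counted if any of its windows matched on either strand, while the shares above are per window. Mmp12 matched only in a further window, with TATAAA at bases 5 to 10 after the start. The TATAAA of Mmp8 lay on the opposite strand, from base -3 to base 3. Among the 12 MMP and TIMP genes elsewhere with a window, 0 had the AP-1 letters and 1 had TATAAA (Mmp21). An exact direct repeat of retinoic acid receptor half-sites (spacing 5) was found in no window of the 22 family genes with one and in 3 of all windows. A match is a match of letters only.

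The libraries held 20960794 to 27038868 counts, and the common biological coefficient of variation was 3.39%. In Stra8KO the Stra8 gene had 2 and 0 counts with Veh and 169 and 170 with NRRA, against 12604 and 16191 in Spo11KO NRRA. Spo11 had 127 to 148 counts in Spo11KO NRRA and 66 to 68 in Stra8KO NRRA, so its count did not check the label, and Spo11KO below names the label. Markers of both cell types were present in every library. The 9 germ cell markers (Dazl, Ddx4 and others, with Dppa3 below 1 CPM) summed to 719 to 853 CPM (counts per 1000000 counts of a library, with TMM scaling between libraries) in Stra8KO and to 1464 to 1729 CPM in Spo11KO. The 18 fibroblast markers (Col1a1, Pdgfra, Fn1 and others) summed to at least 15080 CPM in every library. In such bulk RNA, fewer cells of a type and less RNA per cell cannot be told apart.

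Under NRRA the stromelysin genes Mmp3 and Mmp10 fell 8.59- to 12.2-fold in both genotypes, Timp1 fell 2.08- to 2.45-fold, the gelatinase genes and Timp2 fell by less than 2-fold, and of the 9 genes Timp3 alone rose, 4.66- and 4.84-fold. In Stra8KO 7 of the 9 genes were called lower, against 20.2% of all tested genes, and 1 was called higher, against 21.6%. In Spo11KO 6 were called lower, against 25.5%, and 1 higher, against 24.5%. The median log2 fold change of the 9 was -0.45 in Stra8KO and -0.40 in Spo11KO, where the median of all genes was 0.01 in both. A call here is an adjusted p under 0.05 by edgeR's quasi-likelihood test. Libraries of Veh and NRRA that do not overlap, as given for single genes below, were found for 69.4% of all tested genes in Stra8KO and 71.9% in Spo11KO.

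**Figure D1:**
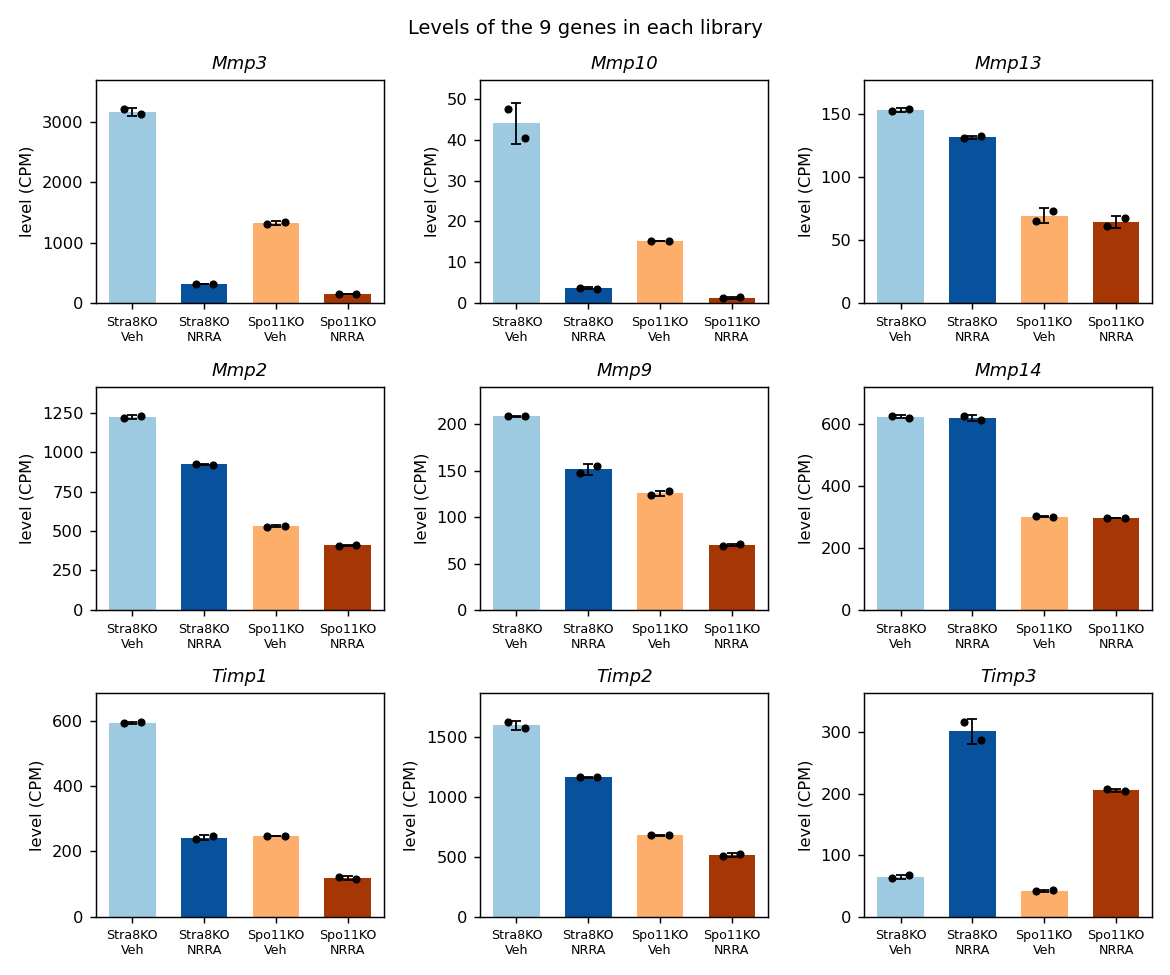
Level of each gene in CPM after TMM scaling (linear axis from 0) in the 4 groups. Bars are means of 2 libraries, error bars are SD and points are libraries. Mmp3 and Mmp10 stand far lower in NRRA than in Veh, Mmp14 is level across media, and Timp3 is the gene that stands higher in NRRA.

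Mmp3 (ENSMUSG00000043613, chr9:7445822-7455975, plus strand, GRCm38) encodes stromelysin-1. In Stra8KO its counts were 71846 and 61985 with Veh and 6654 and 6950 with NRRA. In Spo11KO it had 30903 and 30914 counts in Veh and 4087 and 4405 in NRRA. Both Veh groups stood above both NRRA groups, with no overlap between any groups. In the Stra8KO Veh libraries Mmp3 was the 13th and 15th most counted gene, and in Stra8KO NRRA the 452nd and 453rd. Its level moved from 3167 ± 65.1 to 321 ± 0.266 CPM (SD, n = 2) in Stra8KO, a log2 fold change of -3.30 ± 0.04 (SE, adjusted p = 2.04e-49). In Spo11KO it moved from 1323 ± 30.9 to 154 ± 5.24 CPM, a change of -3.10 ± 0.04 (adjusted p = 2.61e-48).

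Mmp10 (ENSMUSG00000047562, chr9:7502352-7510240, plus strand) encodes stromelysin-2 and was far less abundant. Stra8KO libraries held 1063 and 804 counts with Veh and 78 and 75 with NRRA, and Spo11KO libraries held 359 and 347, then 30 and 45. The groups did not overlap, and the order of the 4 groups was that of Mmp3. The log2 fold change was -3.61 ± 0.12 in Stra8KO (12.2-fold lower, adjusted p = 1.31e-30) and -3.47 ± 0.15 in Spo11KO (11.1-fold lower, adjusted p = 4.50e-25). Of the 50-base stretches of Mmp10 exons, 8.37% also occur in Mmp3, so part of its reads could belong to Mmp3, and how reads with several matches were counted is not given in the sources used here.

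Mmp13 (ENSMUSG00000050578, chr9:7272514-7283331, plus strand), the interstitial collagenase at the edge of the same cluster, moved little. Its counts were 3392 and 3052 with Veh and 2704 and 2857 with NRRA in Stra8KO. They were 1546 and 1684, then 1578 and 1971, in Spo11KO. In Stra8KO the level fell from 153 ± 1.40 to 131 ± 0.960 CPM, with no overlap and a log2 fold change of -0.22 ± 0.05 (adjusted p = 0.000221). In Spo11KO the media overlapped, at 65.1 and 73.3 CPM in Veh and 60.9 and 67.2 CPM in NRRA, with a change of -0.11 ± 0.05 (adjusted p = 0.0896). That value was called without the first Spo11KO Veh library (-0.19, adjusted p = 0.00704) and without the second Spo11KO NRRA library (-0.20, adjusted p = 0.00679). Its promoter carried the AP-1 and TATAAA letters, as did those of Mmp3 and Mmp10.

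The gelatinase genes fell by less than 2-fold. Mmp2 (ENSMUSG00000031740, chr8:92827291-92853420, plus strand) went from 27193 and 24450 counts with Veh to 19177 and 19912 with NRRA in Stra8KO, and from 12497 and 12265 to 10578 and 12112 in Spo11KO. On the CPM scale its groups did not overlap, with log2 fold changes of -0.41 ± 0.03 in Stra8KO and -0.37 ± 0.03 in Spo11KO (adjusted p = 1.15e-14 and 5.34e-13). Mmp9 (ENSMUSG00000017737, chr2:164940780-164955850, plus strand) went from 4682 and 4142 counts to 3051 and 3371 in Stra8KO, and from 2942 and 2934 to 1785 and 2070 in Spo11KO. Its CPM groups did not overlap either. It fell by 0.46 ± 0.04 on the log2 scale in Stra8KO and by 0.85 ± 0.05 in Spo11KO (adjusted p = 2.73e-13 and 9.34e-22).

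Mmp14 (ENSMUSG00000000957, chr14:54431612-54445364, plus strand), the membrane-type MMP that activates the MMP2 precursor, was not called in either genotype. Its Stra8KO counts were 13990 and 12289 with Veh and 12952 and 13244 with NRRA, which is 626, 619, 625 and 611 CPM. In Spo11KO it had 7155 and 6901 counts in Veh and 7637 and 8664 in NRRA, which is 301, 300.3, 295 and 296 CPM. The libraries of the media overlapped in Stra8KO and lay close to each other without overlap in Spo11KO. The log2 fold changes were -0.01 ± 0.04 (adjusted p = 0.861) and -0.03 ± 0.04 (adjusted p = 0.564).

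Of the inhibitors, Timp1 (ENSMUSG00000001131, chrX:20870166-20874735, plus strand), a broad secreted MMP inhibitor, went from 13225 and 11805 counts with Veh to 4905 and 5375 with NRRA in Stra8KO, and from 5883 and 5672 to 3190 and 3379 in Spo11KO. Within each genotype the media did not overlap, while Stra8KO NRRA (237 and 248 CPM) overlapped Spo11KO Veh (247 and 248 CPM). Timp1 fell by 1.29 ± 0.04 on the log2 scale in Stra8KO (2.45-fold, adjusted p = 5.06e-32) and by 1.05 ± 0.04 in Spo11KO (2.08-fold, adjusted p = 1.34e-27). Timp2 (ENSMUSG00000017466, chr11:118301069-118355740, minus strand), which inhibits MMP2 and also takes part in its activation by MMP14, went from 36349 and 31289 counts to 24279 and 25244 in Stra8KO, and from 16152 and 15766 to 13113 and 15419 in Spo11KO. Its CPM groups did not overlap. Its log2 fold changes, -0.45 ± 0.03 and -0.40 ± 0.03 (adjusted p = 3.17e-16 and 2.38e-14), lay within 0.05 of those of Mmp2 in each genotype.

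Timp3 (ENSMUSG00000020044, chr10:86300372-86349506, plus strand), the inhibitor that binds to the matrix and also blocks several ADAM proteases, was the only one of the 9 genes that rose. Its counts were 1397 and 1334 with Veh and 6553 and 6230 with NRRA in Stra8KO, and 984 and 1005, then 5382 and 5982, in Spo11KO. Every NRRA library stood above every Veh library. Its level went from 64.8 ± 3.32 to 302 ± 20.3 CPM in Stra8KO (log2 fold change 2.22 ± 0.05, 4.66-fold, adjusted p = 6.35e-38) and from 42.6 ± 1.62 to 206 ± 2.53 CPM in Spo11KO (2.27 ± 0.05, 4.84-fold, adjusted p = 1.43e-37). Of its exon bases, 21.3% (1733 bases) overlap exons of Syn3 on the other strand. Syn3 rose by a like amount, from 511 and 563 counts to 2427 and 2535 in Stra8KO and from 415 and 444 to 2242 and 2541 in Spo11KO (log2 fold change 2.20 ± 0.06 and 2.24 ± 0.06). The library kit kept strand, but the strand setting of the counting is not given in the sources used here, and if strand was not used in counting, reads of both genes in the shared bases cannot be told apart.

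**Figure D2:**
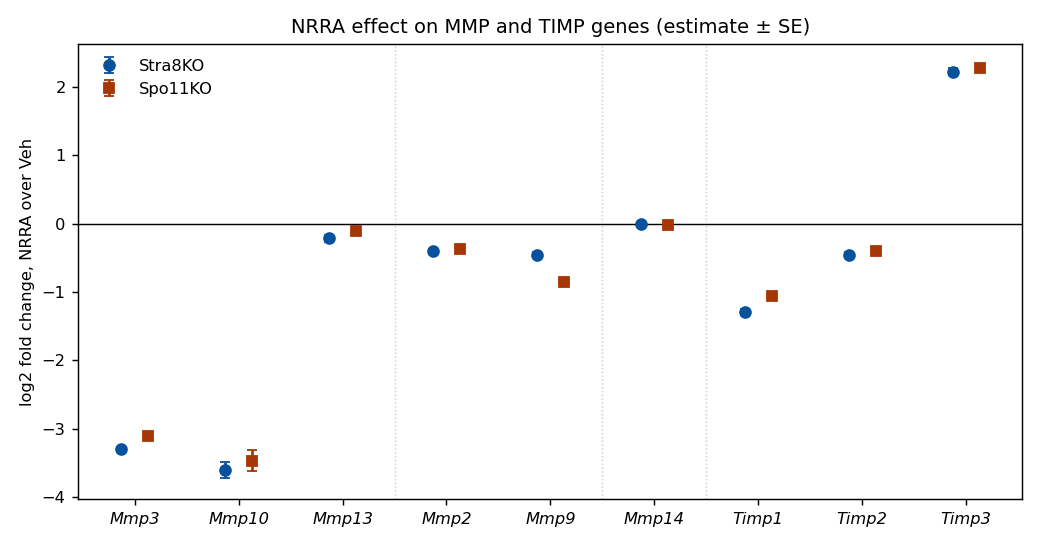
Log2 fold change (NRRA over Veh, edgeR) of the 9 genes in Stra8KO (circles) and Spo11KO (squares), with SE bars. Both genotypes place the genes in nearly the same way, from -3.61 for Mmp10 to 2.27 for Timp3, with Mmp13 and Mmp14 near 0 and the widest gap between genotypes at Mmp9.

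The make-up of the MMP and TIMP transcripts shifted with the medium. On a scale per length (CPM per kb of exons), which allows genes to be compared, Mmp3 held 71.6% ± 0.440 of the summed level of all MMP genes in Stra8KO Veh and 24.5% ± 0.0301 in Stra8KO NRRA (SD, n = 2). In Spo11KO it held 69.1% ± 0.222 and 24.7% ± 0.850. Mmp2 became the leading MMP transcript in NRRA, from 14.8% ± 0.341 to 37.6% ± 0.111 in Stra8KO and from 14.8% ± 0.152 to 35.3% ± 0.296 in Spo11KO. Among the 6 MMP members the order of levels per length in Veh was Mmp3, Mmp2, Mmp14, Mmp9, Mmp13 and Mmp10 in both genotypes. In NRRA it was Mmp2, Mmp3, Mmp14, Mmp13, Mmp9 and Mmp10, and none of these neighbours overlapped between libraries.

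The summed MMP level per length went from 2481 and 2431 with Veh to 728 and 726 with NRRA in Stra8KO, and from 1048 and 1079 to 345 and 346 in Spo11KO. The summed TIMP level went from 1091 and 1082 to 606 and 614, and from 459 and 459 to 294 and 290.0. The TIMP level per MMP level was thus 0.440 and 0.445 with Veh and 0.833 and 0.845 with NRRA in Stra8KO, and 0.438 and 0.426, then 0.851 and 0.839, in Spo11KO. The media did not overlap in either genotype, and the means of the genotypes were 0.442 and 0.432 with Veh and 0.839 and 0.845 with NRRA. Most of the MMP fall was Mmp3, from 1759 to 178 per length in Stra8KO and from 735 to 85.5 in Spo11KO. Mmp2 went only from 363 to 274 and from 157 to 122, while Timp1 went from 668 to 273 and from 278 to 134. The rise of the ratio therefore rests on Mmp3, and a ratio without Mmp3 was not computed. With 2 libraries per group an exact two-sided permutation test cannot go below p = 0.333 for such a ratio, so none is given. Among the inhibitors Timp3 went from 0.733% ± 0.0418 to 6.08% ± 0.462 of the TIMP level in Stra8KO and from 1.14% ± 0.0421 to 8.66% ± 0.0219 in Spo11KO, while Timp1 went from 61.5% ± 0.577 to 44.7% ± 1.09 and from 60.7% ± 0.229 to 46.0% ± 1.68. These are RNA levels, and protein and activity were not measured in these libraries.

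**Figure D3:**
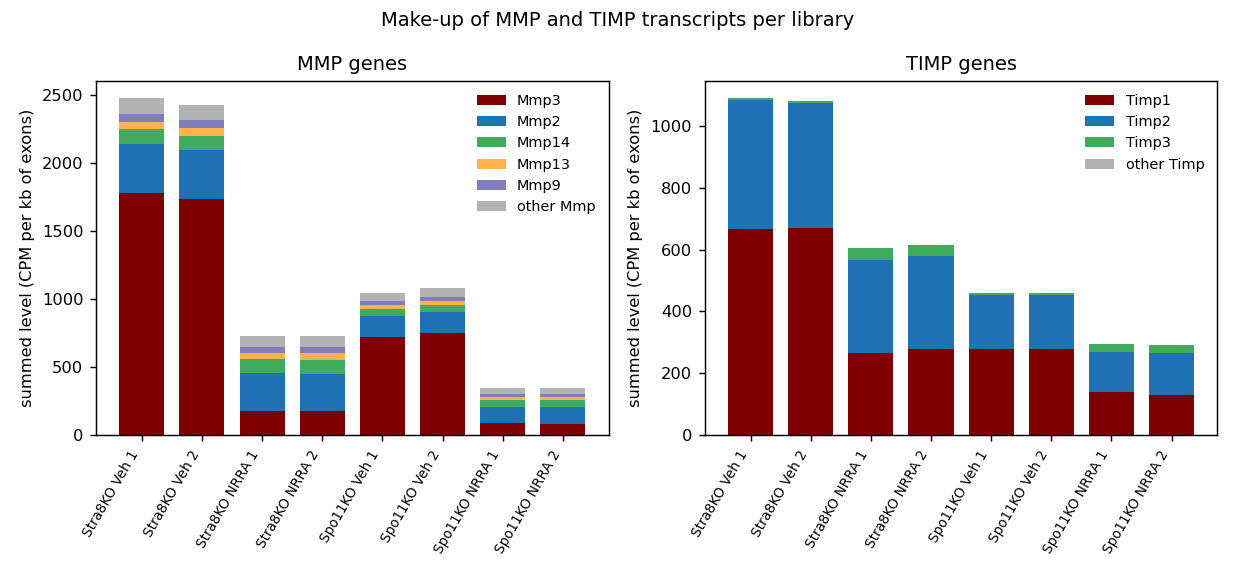
Stacked level per length (CPM per kb of exons, axis from 0) of the MMP genes (left) and TIMP genes (right) in each of the 8 libraries. Mmp3 makes up most of the MMP bar in the 4 Veh libraries and 24.5% and 24.7% on average in the NRRA groups, and the Timp3 segment is thicker in NRRA.

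Across the rest of the family, 15 of 18 other MMP and TIMP genes were tested. In Stra8KO 4 were called higher and 7 lower, with a median log2 fold change of -0.19, and in Spo11KO 3 were higher and 7 lower, with a median of -0.25. Of all tested genes, 21.6% were called higher and 20.2% lower in Stra8KO, and 24.5% and 25.5% in Spo11KO. Mmp1a, an interstitial collagenase gene of rodents, had 76 and 66 counts with Veh and 6 and 4 with NRRA in Stra8KO (log2 fold change -3.80 ± 0.41). In Spo11KO its 26 and 27 counts became 0 and 3, at least 10.4-fold lower when the NRRA libraries are set to 3 counts each. Its close relative Mmp1b fell by 2.06 ± 0.18 and 1.37 ± 0.23 on the log2 scale, and whether reads of this related pair were kept apart in counting was not tested. Mmp12, the macrophage elastase, fell by 1.77 ± 0.10 and 1.76 ± 0.11. Mmp25, a membrane-anchored MMP of leukocytes, fell by 0.93 ± 0.27 in Stra8KO and by 3.09 ± 0.22 in Spo11KO. Among those called higher, Mmp23 rose by 1.10 ± 0.09 in Stra8KO and 1.22 ± 0.11 in Spo11KO. Mmp16 and Mmp17 were also called higher in both genotypes, and Mmp11 in Stra8KO only.

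Along the chromosome 9 cluster, 8 of the 10 MMP genes had enough counts for a test. All 8 were called lower in Stra8KO and 7 in Spo11KO, Mmp13 being the exception, against 20.2% and 25.5% of all tested genes. In chromosome order, the log2 fold changes were -0.22 and -0.11 at Mmp13, -1.77 and -1.76 at Mmp12, -2.06 and -1.37 at Mmp1b, between -3.10 and -4.26 at the neighbours Mmp3, Mmp1a and Mmp10, -0.86 and -0.93 at Mmp8 and -1.52 and -1.66 at Mmp27. A relation to position was not tested, and the value of Mmp1a in Spo11KO (-4.26) depends on the prior count. The 4 nearest protein-coding genes outside the cluster ranged from 0.09 to 0.26 in Stra8KO and from 0.01 to 0.42 in Spo11KO, with 3 called higher and 0 lower in each.

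**Figure D4:**
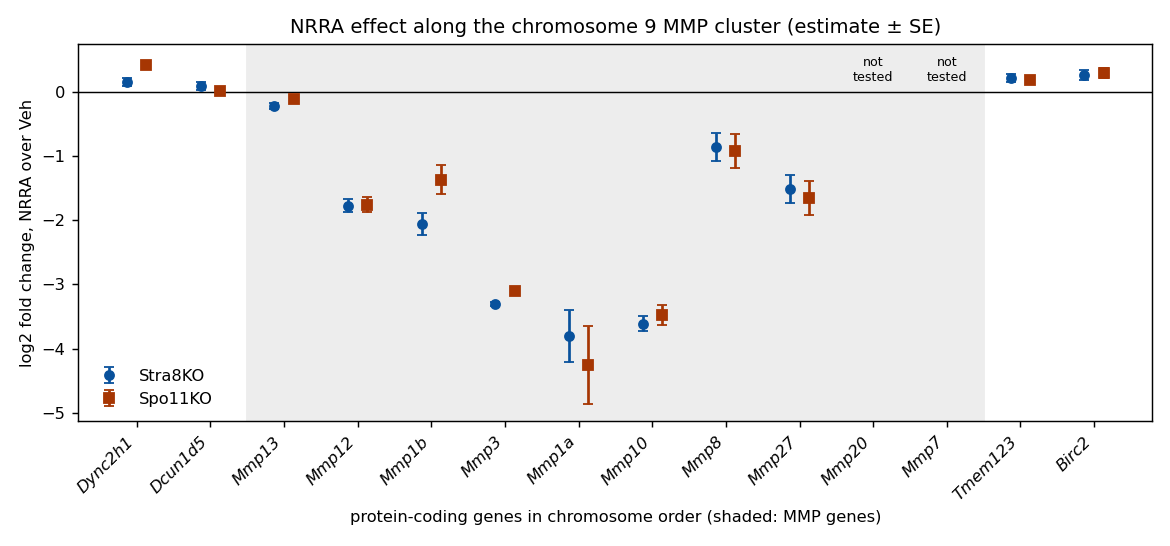
Log2 fold change (NRRA over Veh) with SE bars of the MMP genes of the chromosome 9 cluster (shaded) and 2 flanking genes on each side, in chromosome order. The change is deepest at Mmp3, Mmp1a and Mmp10, is -0.22 and -0.11 at Mmp13, and lies above 0 at the flanking genes. Mmp20 and Mmp7 had too few counts.

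Genes that act around MMPs moved with them in part. For this and the following lists of genes and markers, the shares of all tested genes under NRRA are the measure. These were 20.2% called lower and 21.6% higher in Stra8KO, and 25.5% lower and 24.5% higher in Spo11KO. Of 7 tested genes of plasminogen activation, which feeds plasmin into MMP activation, 5 were called lower and 1 higher in Stra8KO and 4 lower and 1 higher in Spo11KO (median log2 fold change -0.24 and -0.29). Plau (urokinase) fell by 2.23 ± 0.07 and 1.52 ± 0.08, its receptor Plaur fell by 1.73 ± 0.10 and 2.27 ± 0.10, and the inhibitor Serpinb2 fell by 3.69 ± 0.08 and 2.77 ± 0.09. Plat, the tissue-type activator, rose by 0.37 ± 0.05 and 0.25 ± 0.05.

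Of 8 genes that control MMPs at the cell surface, 4 were higher and 3 lower in Stra8KO and 3 higher and 5 lower in Spo11KO (median 0.02 and -0.21). Reck, a membrane-anchored MMP inhibitor, rose by 0.47 ± 0.06 and 0.65 ± 0.06. Tfpi2, a secreted protease inhibitor, fell by 1.86 ± 0.06 and 1.70 ± 0.07, Cd44, a hyaluronan receptor that docks MMPs, fell by 1.54 ± 0.04 and 1.14 ± 0.04, and Furin, which activates the MMP14 precursor, fell by 0.83 ± 0.04 and 0.58 ± 0.04. Of 13 ADAM and ADAMTS proteases, 7 were higher and 4 lower in Stra8KO and 6 higher and 5 lower in Spo11KO (median 0.25 and -0.0029). The aggrecanase Adamts5 rose by 4.12 ± 0.08 and 3.70 ± 0.09 and the versican-cutting Adamts1 rose by 1.95 ± 0.06 and 1.99 ± 0.07. Adamts9 rose by 0.94 ± 0.07 and 0.54 ± 0.07, and Adam8 fell by 1.08 ± 0.13 and 0.85 ± 0.15.

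Among 10 transcription factors known to bind MMP promoters (7 AP-1 proteins, the ETS factors Ets1 and Ets2, and Runx2 of the RUNT family), 6 were called lower and 2 higher in Stra8KO and 8 lower and 2 higher in Spo11KO (median -0.27 and -0.44). Fosl1 fell by 2.12 ± 0.07 and 1.92 ± 0.08, Jun fell by 1.23 ± 0.05 and 1.04 ± 0.06, and Junb fell by 0.67 ± 0.06 and 1.28 ± 0.07. Runx2, one of those called lower, fell by 0.25 ± 0.09 and 0.29 ± 0.10. The 2 called higher in each genotype were Jund (0.18 ± 0.05 and 0.39 ± 0.05) and Ets1 (0.56 ± 0.05 and 0.32 ± 0.05). Fos fell by 0.71 ± 0.11 in Spo11KO and was not called in Stra8KO (-0.16 ± 0.14, adjusted p = 0.389). Of 7 tested cytokines known to act on MMP genes, 4 were lower and 3 higher in Stra8KO and 3 lower and 2 higher in Spo11KO (median -0.61 and -0.09). Lif fell by 2.24 ± 0.07 and 1.70 ± 0.09, Tgfb1 fell by 1.12 ± 0.05 and 1.22 ± 0.05, Il1a fell by 1.04 ± 0.09 and 0.66 ± 0.11, and Tgfb2 rose by 2.78 ± 0.08 and 2.76 ± 0.10. All 8 retinoic acid response genes were called higher in both genotypes (median 3.25 and 2.62), among them the receptor gene Rarb (5.46 ± 0.19 and 5.60 ± 0.25), the retinoid-degrading Cyp26a1 (4.63 ± 0.25 and 4.02 ± 0.17), Dhrs3 (3.45 ± 0.07 and 2.85 ± 0.08) and Tgm2 (4.11 ± 0.08 and 3.58 ± 0.09).

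Markers of other cell types moved with the medium too. The 5 smooth muscle markers, which fibroblasts also make when they turn contractile, summed to 102 to 111 CPM in Stra8KO Veh and 1045 to 1087 in Stra8KO NRRA, and to 56.8 to 59.6 and 507 to 529 CPM in Spo11KO, and 4 of the 5 were called higher in each genotype. The 18 fibroblast markers summed to 28972 to 29483 and then 44056 to 44662 CPM in Stra8KO, and to 15080 to 15209 and then 22470 to 23126 CPM in Spo11KO. They did not move as a block, with 10 called higher and 6 lower in Stra8KO and 11 higher and 7 lower in Spo11KO. The sum rose mostly through Col1a1, Col1a2 and Col3a1. Col1a1 went from 4145 to 11431 CPM in Stra8KO and from 2315 to 5792 CPM in Spo11KO. Among those called lower, Fn1 went from 10530 to 7869 and from 5091 to 3905 CPM. Scaling to the summed 18 markers is thus weighted to abundant collagen genes that rose, and does not give levels per feeder cell. When libraries were scaled to these markers, the median of all genes shifted to -0.59 and -0.58, and Mmp3 (-3.90 and -3.69), Mmp10 (-4.21 and -4.06), Timp1 (-1.89 and -1.64) and Timp3 (1.62 and 1.68) kept their directions. Mmp14 then stood at -0.61 and -0.62, called lower but next to the shifted median. The 9 macrophage markers, relevant to Mmp9 and Mmp12, summed to 58.8 to 64.4 and 69.3 to 69.7 CPM in Stra8KO and to 37.6 to 40.4 and 40.0 to 43.8 CPM in Spo11KO, with Ptprc, Itgam, C1qa and C1qb below 1 CPM. They moved apart, since Cd68 fell by 0.54 and 1.24 on the log2 scale while Lyz2 rose by 0.56 and 0.94, and Adgre1 rose by 0.95 in Spo11KO. Lower in NRRA were the summed 7 Sertoli cell markers (40.4 to 45.5 and 28.3 to 28.8 CPM in Stra8KO, 34.3 to 36.5 and 15.3 to 16.2 CPM in Spo11KO), of which 5, with Amh and Fshr, were below 1 CPM. That sum was mostly Sox9, which fell by 1.29 and 1.54, while Wt1 rose by 1.65 in Stra8KO and stood at -0.07 in Spo11KO (adjusted p = 0.767). Also lower were the 6 keratinocyte markers (32.5 to 34.3 and 8.22 to 10.0 CPM, 14.8 to 16.4 and 4.78 to 5.63 CPM), with Krt5, Krt14 and Krt6a below 1 CPM and Ivl and Sfn called lower in both genotypes. The 5 endothelial markers summed to at most 13.2 and then 16.7 to 17.8 CPM in Stra8KO and to 13.6 to 13.8 and 8.41 to 8.80 CPM in Spo11KO, and Pecam1 rose by 0.92 in the first and fell by 2.15 in the second while Cdh5 fell by 2.17 in the first. The part of these cell types in the NRRA results was not tested.

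All 9 genes were called higher in Stra8KO than in Spo11KO, in both media. The call was made for 31.6% of all tested genes in Veh and for 35% in NRRA. The log2 differences (Stra8KO over Spo11KO) ran from 0.61 ± 0.06 for Timp3 to 1.54 ± 0.09 for Mmp10 in Veh, with a median of 1.21, and from 0.55 ± 0.04 for Timp3 to 1.41 ± 0.21 for Mmp10 in NRRA, with a median of 1.07. Mmp3 differed by 1.26 ± 0.03 in Veh and 1.06 ± 0.04 in NRRA, and Mmp2 by 1.21 ± 0.03 and 1.17 ± 0.03. The Stra8KO libraries stood above the Spo11KO libraries without overlap for 9 of 9 in each medium, as they did for 39.9% of all tested genes in Veh and 43.8% in NRRA. These 2 comparisons share no libraries, but each shares its libraries with the NRRA comparisons above. The labels do not say which cultures the libraries of a genotype came from. Genotype, culture and the share of feeder RNA therefore cannot be told apart, and the p-values measure the spread between libraries.

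The genotype difference went together with a difference in feeder markers. Each of the 18 fibroblast markers stood higher in Stra8KO, and was called so with Veh and with NRRA (median log2 difference 1.00 and 0.96), and 8 of the 9 germ cell markers were called lower in each (median -0.99 and -1.04). Of all tested genes, 31.6% were called higher and 30.7% lower in Veh, and 35% and 28.9% in NRRA. Xist, the transcript of the inactive X chromosome in female cells, had 7375 to 8137 counts in the Stra8KO libraries and 3844 to 5266 in the Spo11KO libraries, a difference of 1.11 ± 0.04 in Veh and 0.99 ± 0.04 in NRRA. Scaling to the fibroblast markers shifted the median of all genes to -0.94 in Veh and -0.89 in NRRA and brought the 9 genes to between -0.34 and 0.60 in Veh and between -0.41 and 0.45 in NRRA. Under that scaling 7 were higher and 2 lower in Veh, and 6 were higher and 1 lower in NRRA. Of all 20588 tested genes, that scaling called 630 higher and 14934 lower in Veh, and 792 higher and 14749 lower in NRRA. Scaling to Xist, tried after the data were seen, left 2 higher and 2 lower in Veh and 2 higher and 1 lower in NRRA. Of all tested genes, scaling to Xist called 182 higher and 15852 lower in Veh, and 540 higher and 14720 lower in NRRA. Timp3 was then lower in Stra8KO under both scalings (-0.34 and -0.41 by fibroblast markers), and by fibroblast markers Mmp9 was lower in Veh (-0.22) and higher in NRRA (0.16). Per 1000 counts of fibroblast markers, Mmp3 stood at 108 ± 3.56 in Stra8KO Veh and 87.4 ± 1.52 in Spo11KO Veh, and at 7.24 ± 0.0638 and 6.75 ± 0.0926 in NRRA. The marker sum itself rose in NRRA, so these values do not compare Mmp3 per feeder cell between media.

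**Figure D5:**
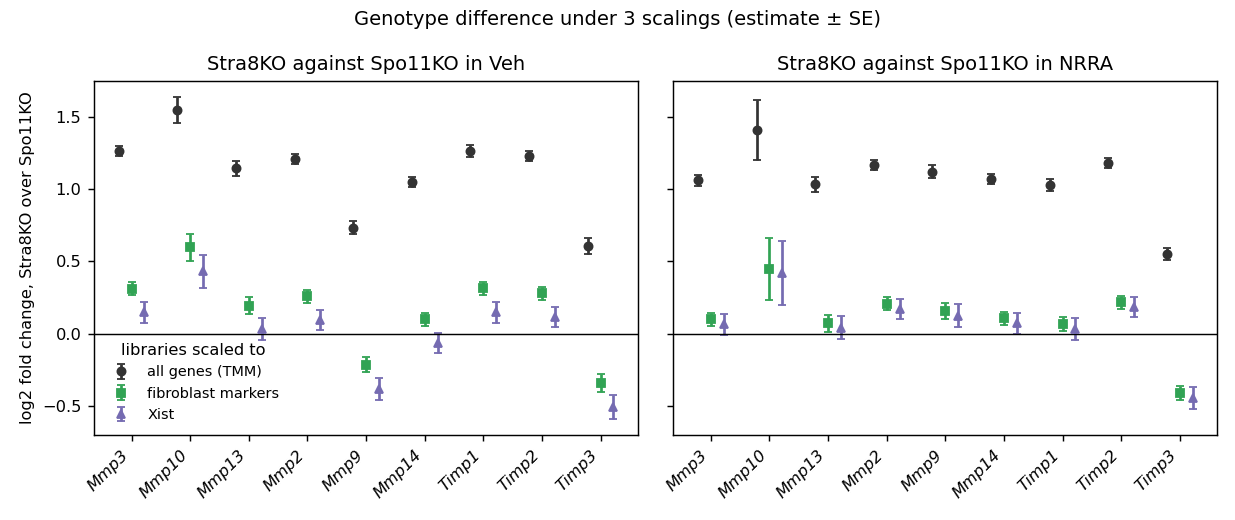
Log2 difference (Stra8KO over Spo11KO, estimate and SE) of the 9 genes in Veh (left) and NRRA (right), with libraries scaled to all genes (circles), to fibroblast markers (squares) or to Xist (triangles). The circles lie between 0.55 and 1.54, the other symbols lie between -0.51 and 0.60, and Timp3 lies below 0 under both of the latter scalings.

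The size of the NRRA effect differed between the genotypes for 3 of the 9 genes, by a test of the difference itself. Here too genotype cannot be told apart from culture, and the p-values measure the spread between libraries only. Mmp9 fell less in Stra8KO than in Spo11KO, with an interaction of 0.39 ± 0.06 on the log2 scale (adjusted p = 2.42e-06), where 14.8% of all tested genes were called in that direction. Mmp3 (-0.20 ± 0.05, adjusted p = 0.00172) and Timp1 (-0.24 ± 0.06, adjusted p = 0.000847) fell more in Stra8KO, where 10.3% of all genes were called in that direction. Both calls were lost when libraries were scaled to Xist (-0.08 and -0.12, adjusted p = 0.653 and 0.506), while Mmp9 stayed called. For the other 6 the interaction lay between -0.14 and 0.02, and none was called. Of these Mmp10 had the widest error (-0.14 ± 0.24), so that a sizeable difference was not detectable for it at its 30 to 1063 counts.

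Other genes followed the members closely across the 8 libraries. The 3 genes whose log2 CPM followed Mmp3 most closely, out of 12860 genes with a mean log2 CPM of at least 1, were Etv1, Grem1 and Ass1 (Pearson r of 0.999 each). For Timp3 they were Cavin2, Syn3 and Abi3bp (0.999, 0.998 and 0.998), of which Syn3 shares exon bases with it. Timp2 and Mmp2 were each among the 3 nearest to the other (0.999), with Fn1 also near Timp2 and Myof nearest to Mmp2. Mmp14 was nearest to H6pd, Ltbr and B4galt1, Mmp13 to Rab21, Emp3 and Mbnl2, Timp1 to Emilin2, Arhgef40 and Arpc1b, Mmp9 to Arhgap31, Akr1b8 and Txn2, and Mmp10 to Uba1, Grem1 and Gripap1, with r of at least 0.996. Such values rest on 4 group means and share library depth, so they describe likeness over these libraries only. Likeness of pattern was not likeness of size, since Uba1 changed by -0.48 and -0.47 under NRRA where Mmp10 changed by -3.61 and -3.47.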

How the data were processed

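RNA was measured in 8 libraries, 2 per group. The authors deposited raw counts per Ensembl gene in a single table, not normalized and not pooled. The submitters' processing notes name STAR 2.6.1c, featureCounts 1.6.4, bcl2fastq and mm10. The libraries were stranded (poly(A) mRNA), and the strand setting of counting and treatment of multiple matches are not given in the sources used here. The study describes the 2 libraries of a group as independent biological replicates, and the labels do not say which cultures they came from. Their counts differed by more than sampling noise (median chi-square 0.741 to 0.974 against 0.455), and each was kept as a sample.

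Testing used edgeR 4.0.16 (R 4.3.3) with filterByExpr (20588 genes, 99.88% of counts), TMM, a group-means model on all 8 libraries and robust two-sided quasi-likelihood F tests, with Benjamini-Hochberg adjustment over all tested genes and calls at 0.05. SE is the absolute log2 fold change over the square root of F. The steps were tested on simulated data. Levels are CPM after TMM, as mean ± SD. Where a group had at most 3 counts in each library, a bound was set at 3 counts per library, which covers counting error only. Positions and exon lengths are from GENCODE M21 (GRCm38), which held 99.67% of the gene identifiers, and promoters from RefSeq (GRCm38.p6).

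The members and lists were chosen with earlier results of these data known. Named were all 9 members, per pathway list the 4 genes with a mean of at least 1 CPM and the largest change under NRRA, and per member the 3 genes of most alike log2 CPM. Beyond that rule, the other family genes called higher and the transcription factors Runx2, Jund and Ets1 were named. Other genes of the chromosome 9 cluster were named by position, and Syn3 and Xist because a result turned on them. Alternatives were other scalings (DESeq2 1.42.0 size factors, library totals, fibroblast markers and, chosen after seeing the data, Xist), other filters, the DESeq2 Wald test, only the 4 libraries compared, a replicate block, a 2-fold threshold and leaving out each library.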

Additional observations from a re-analysis of the deposited data

Results flagged for a closer look

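The NRRA effect differed between genotypes for 3 of the 9 genes by the test of the interaction (the log2 effect in Stra8KO less the one in Spo11KO, edgeR's quasi-likelihood test). Of all tested genes, 25.1% were called for the interaction in either direction, so the 3 calls do not set the members apart. Mmp9 had a log2 interaction of 0.39, with a 1.38-fold fall in Stra8KO and a 1.80-fold fall in Spo11KO. Its levels went from 209 and 209 CPM with Veh to 147 and 156 with NRRA in Stra8KO, and from 124 and 128 to 68.9 and 70.6 in Spo11KO. Over its alternatives the Mmp9 interaction ranged from 0.29 to 0.51 and was called in each, but it lies under the 2-fold threshold that was also tried.

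Mmp3 had an interaction of -0.20 (9.87-fold and 8.59-fold falls), with a range of -0.29 to -0.08 over its alternatives. Timp1 had -0.24 (2.45-fold and 2.08-fold falls), with a range of -0.33 to -0.12. With the libraries scaled to Xist neither was called.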

How the results depend on the processing

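The falls of Mmp3, Mmp10, Mmp2, Mmp9, Timp1 and Timp2 and the rise of Timp3 under NRRA kept their direction and their call in both genotypes under all 17 alternatives. A threshold of at least 2-fold left 3 members lower in Stra8KO and 3 in Spo11KO under NRRA, and 0 higher and 0 lower for the interaction. The shares of all genes were 3.57% and 5.52% lower under NRRA, and 3.91% higher and 1.8% lower for the interaction. The replicate numbers did not pair the libraries (correlations of deviations from -0.027 to 0.056), and with the replicate block the counts stayed at 1 higher and 7 lower in Stra8KO and 1 higher and 6 lower in Spo11KO, and no other call changed.

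Scaling moved the genotype comparison most. Scaling to Xist left 2 members higher and 2 lower in Veh and 2 higher and 1 lower in NRRA, with 0 lower for the interaction. Of all 20588 tested genes it called 182 higher and 15852 lower in Veh and 540 higher and 14720 lower in NRRA. For the interaction it called 767 of all genes lower. Scaling to fibroblast markers gave 2 lower in Veh and 1 lower in NRRA, against 14934 and 14749 of all genes. Library totals gave 5 lower for the interaction, adding Mmp2, Mmp13 and Timp2, against 3473 of all genes.

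Genotype differences that changed sign were those of Mmp9 in Veh (-0.22 by fibroblast markers, -0.38 by Xist), Mmp14 in Veh (-0.065 by Xist), and Timp3 in Veh (-0.34 and -0.51) and in NRRA (-0.41 and -0.44). Interactions that changed sign by Xist were Mmp2 (0.079), Mmp13 (0.0083), Timp2 (0.070) and Timp3 (0.062). That of Mmp14 became -0.014 with size factors, -0.076 with library totals, -0.045 with no filter and -0.014 with DESeq2. The NRRA effect on Mmp14 became 0.072 in Stra8KO by Xist, and in Spo11KO 0.065 with library totals and 0.021 with no filter. Leaving out each library in turn gave ranges of -0.32 to 0.096 for the Mmp10 interaction, -0.024 to 0.0063 for Mmp14 under NRRA in Stra8KO and -0.12 to 0.013 for the Timp3 interaction. The calls of Mmp13 under NRRA (lost in Stra8KO by Xist, made in Spo11KO by fibroblast markers and without either of 2 libraries) also changed. The cause of these changes was not tested. With 2 libraries per group and 0 to 45 counts, the change of Mmp1a and Mmp10 in Spo11KO NRRA has the least depth.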
